A study of Mus musculus with 6 samples.

Results

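The comparison described here sets liver from mice on the NTBC regimen titled off against liver from mice on the regimen titled 2xoff/on, called cycled below. The members are 4 of the 6 arrays of the series: 1 off and 1 cycled array of each of 2 genotypes, chosen by their titles. Fah mice carry the deletion allele Fah_del_tm1Mgo on a BL6 background. FCR mice carry Fah_del_tm1Mgo together with Rag2_del_tm1Fwa and a common gamma chain deletion, tm1Wjl, on the same background, so all 4 livers carry the Fah deletion allele. Both Fah arrays are labelled tumor and both FCR arrays inflamed liver, so that genotype and tissue type go together. NTBC was given at 7.5 µg/ml in the drinking water when it was given. The protocol describes 2 courses of withdrawal for both regimens and does not settle in which phase each liver was taken. The other 2 arrays, 1 of each genotype on continuous NTBC, are labelled healthy liver (Fah) and normal liver (FCR). They were used to place the values and in a fit over all 6 arrays, but not in the main fit. Each group holds 1 array, and nothing in the labels says whether an array holds RNA of 1 animal or of several.

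The enzyme encoded by Fah, fumarylacetoacetate hydrolase, completes the breakdown of tyrosine. Without it, toxic intermediates build up in hepatocytes, and these cells die, regenerate and, over time, form tumours. NTBC blocks an earlier enzyme of the pathway, so that giving or withholding the drug switches this injury off and on. Rag2 is needed for antigen receptors of T and B cells, and the common gamma chain for signalling by several interleukins, so mice without both lack T, B and NK cells.

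Regimen coincided with slide. Both off arrays were on slide 1, together with both continuous arrays, and both cycled arrays were alone on slide 2, which was scanned separately. A difference between off and cycled therefore cannot be told apart from a difference between slides. The median background signal was 22 to 23 on slide 1 and 37 to 38 on slide 2. The 75th percentile of the signal, to which each array was scaled, was 812 and 363 on the Fah and FCR off arrays and 889 and 724 on the cycled arrays. The probe for 28S ribosomal RNA, Rn28s1, a sign of how RNA was primed and labelled, stood at -0.13 and -0.03 on the off arrays, 5.48 and 5.90 on the cycled arrays, and 0.58 and 2.54 on the continuous arrays. The FCR off array stood apart. On the second principal component of all 6 arrays (21.9% of the variance) it lay at -104 and the others between -8.1 and 53.5. Hepatocyte markers (5 of 5 well above background on every array) had a median level of 6.34 there, against 8.16 on the Fah off array and 7.64 and 8.36 on the cycled arrays. A longer list of 14 hepatocyte secreted proteins was instead lowest on the Fah off array. Its medians were 7.27 and 7.68 on the Fah and FCR off arrays and 7.79 and 8.26 on the cycled arrays. In such whole-tissue RNA, fewer cells of a type and less RNA per cell cannot be told apart. Of the targeted genes, the Fah probe was well above background on every array, at -2.28 and -2.85 on the Fah and FCR off arrays, -1.95 and -0.97 in cycled and -1.62 and -1.07 on continuous NTBC. Whether it lies in the deleted part of the gene was not determined, so it does not check the labels. Il2rg, the deleted common gamma chain, was well above background only on the Fah arrays, at -1.94 (off) and -1.98 (cycled) against -7.60 and -7.74 on the FCR arrays. On none of the 6 arrays was Rag2 well above background. Of 6 NK cell markers all were well above background on both Fah arrays, 2 on the FCR off array and 3 on the FCR cycled array; of 7 T cell markers the FCR arrays still had 5 each.

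Each level is the log2 of a probe's background-corrected signal less the log2 of its array's 75th percentile, and a response is the off level minus the cycled level of 1 genotype. Across 15294 tested genes the responses had a median of -0.07 in Fah and 0.15 in FCR and a spread (SD) of 0.87 and 1.20. The spread was wider in FCR, with 1 array on each side. In the fit with genotype as a block (limma, 2 off and 2 cycled arrays, Benjamini-Hochberg adjusted p under 0.05), 243 genes were higher in off (1.59% of those tested) and 563 were lower (3.68%), 5.27% in all. The residual of a gene in this fit is the difference between its Fah and FCR responses, since no genotype has a replicate. With 1 residual degree of freedom the fit took its error wholly from the spread shared by all genes, so an SE here is not a gene's own. A gene that moved in 1 genotype alone could thus be called, and 17 of the 806 called genes had opposite signs. A fit over all 6 arrays called 17 higher and 137 lower, each among the genes above, and a fit without the genotype block called 4. The split depends on the scaling. Of the genes called, 30.1% were higher in off with the 75th percentile, 40.7% after quantile normalization and 69.8% when arrays were scaled to their median. These settings moved the median difference of all genes from 0.03 to 0.13 and 0.41, and a different background correction (normexp) moved it to 0.15, so differences are read against these medians.

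Genes were sorted by whether both genotypes moved by at least 1 on the log2 scale. Alike were 422 genes higher in off in both (2.76%) and 894 lower in both (5.85%). Of these, 182 and 481 were also called by limma. Opposite were 96 genes higher in Fah off and lower in FCR off (0.628%), and 110 lower in Fah off and higher in FCR off (0.719%). A response of at least 2 in 1 genotype with less than 0.5 in the other was seen in Fah alone for 18 genes higher and 42 lower, and in FCR alone for 186 higher and 227 lower. Across genes the responses correlated at r = 0.44 (Spearman 0.38). This describes 2 pairs of arrays that share slides, and genes are not independent replicates.

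**Figure D1:**
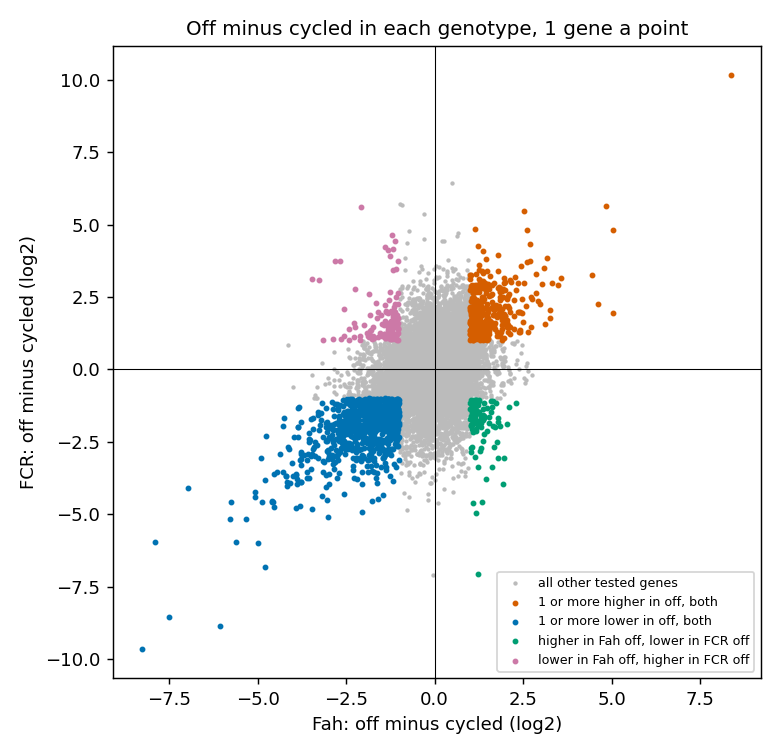
Off minus cycled (log2) of each tested gene in Fah (horizontal axis) and FCR (vertical axis), 1 point a gene. Coloured points moved by at least 1 in both genotypes: 422 higher and 894 lower in off in both, 96 higher in Fah off and lower in FCR off, and 110 the reverse.

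The largest differences alike in both genotypes were of genes whose continuous levels, from the slide of the off arrays, mostly lay near the off levels. Slc4a7, a sodium bicarbonate cotransporter, was at 4.89 and 6.85 on the Fah and FCR off arrays, -3.48 and -3.32 on the cycled arrays, and 6.63 and 3.64 on the continuous arrays. It was called higher by 9.27 ± 0.52 (difference ± SE, n = 2 and 2; limma, adjusted p = 1.97e-66), while the means of its 3 probes ranged from -0.52 to 9.27. The off and continuous levels, all from slide 1, lay far above the cycled ones, and the other 2 probes gave Fah and FCR responses of -0.57 and -0.47, and of 0.20 and 1.82. Grn, progranulin, was at 6.82 and 7.79 in off, 2.39 and 4.52 in cycled and 7.73 and 7.88 on continuous NTBC, a difference of 3.85 ± 0.58 (limma, adjusted p = 1.34e-08). Its other probe had a mean difference of -0.20. Dlx5, a homeobox factor of bone, was not well above background on either cycled array and was at least 7.26-fold higher in off. It was tested because of its off arrays alone, and with normexp its call was lost (1.41; limma, adjusted p = 0.173). Such a fold sets the bright arrays against the lowest signal that counted as well above background on each dim array, or the probe's own value where that was higher.

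For most of the genes lowest in off the continuous levels again lay near off. Fthl17e, a ferritin-like gene, was at -4.68 and -5.54 in off, 2.83 and 3.00 in cycled and -3.64 and -2.88 on continuous NTBC, a difference of -8.02 ± 0.53 (limma, adjusted p = 3.92e-47). Fam13c was not well above background in off, was tested because of its cycled arrays alone, and was at least 192-fold lower in off. Prm2, a protamine of sperm chromatin, was at -4.97 and -4.03 in off, 0.81 and 1.14 in cycled and -4.19 and -3.91 on continuous NTBC. It differed by -5.48 ± 0.54, with a limma adjusted p of 1.79e-20. Il2, a T cell cytokine, was at -6.16 and -5.12 in off and -0.42 and -0.55 in cycled. It was well above background on neither continuous array and differed by -5.16 ± 0.57 (limma, adjusted p = 4.18e-16). Lalba, a milk protein, and Nog, a BMP antagonist, had Fah responses of -6.07 and -4.79. Neither was well above background on the FCR off array, where they were at least 106-fold and 30.7-fold lower than on the FCR cycled array. Cyp17a1, a steroid hydroxylase, fell from 3.58 and 3.45 in cycled to -0.30 and -0.33 in off, and stood at -0.09 and 0.32 on continuous NTBC (-3.84 ± 0.52; limma, adjusted p = 1.15e-10).

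Of the 24 genes with the largest called differences alike in both genotypes (12 each way), 5 of the higher and 6 of the lower ones were well above background on all 4 arrays. The continuous levels were nearer off in both genotypes for 8 of the 12 higher and 9 of the 12 lower ones. Over all 663 genes called alike the continuous levels were nearer off for 443 (66.8%) and nearer cycled for 106 (16%), against 29.4% and 27.7% of all genes tested. The 481 lower genes had 74% nearer off and 7.69% nearer cycled, and the 182 higher genes 47.8% and 37.9%. The off and continuous arrays share a slide, and slide and regimen cannot be told apart here. Among 228 genes called alike with several measured probes (well above background on at least 2 of the 4 arrays), 98 had all probes moving the same way.

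**Figure D2:**
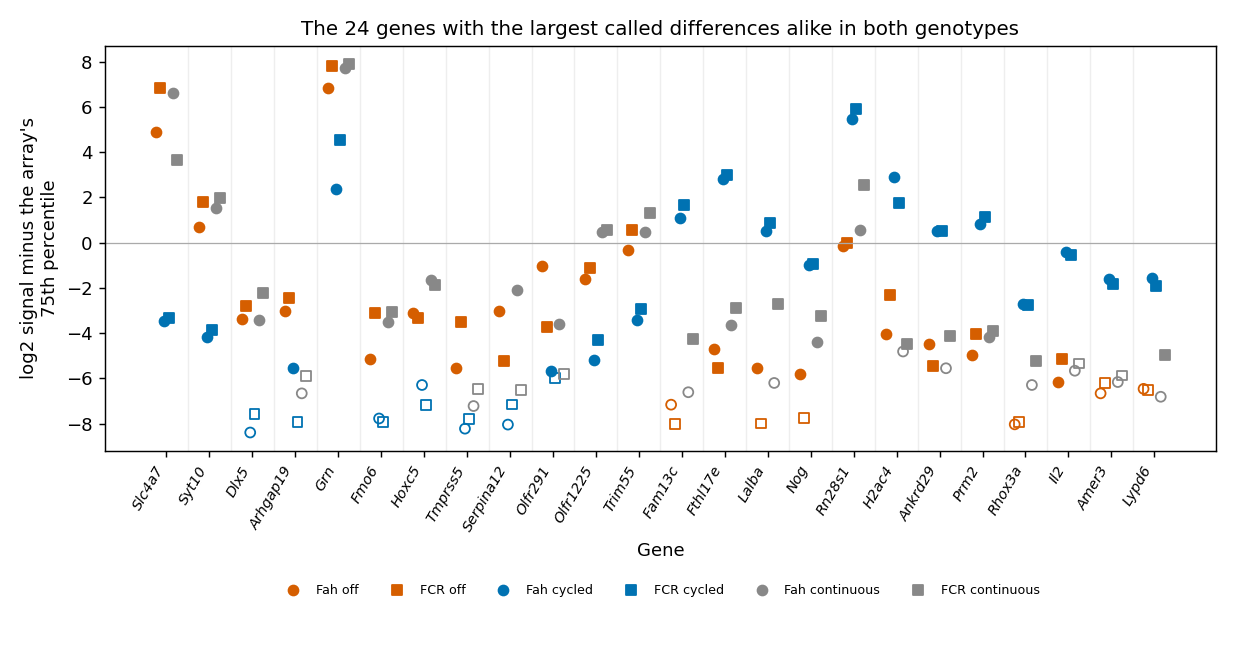
Log2 level on each of the 6 arrays (orange off, blue cycled, grey continuous; circles Fah, squares FCR) for the 12 genes highest and the 12 lowest in off among those called alike; open symbols were not well above background. The grey points lie nearer the orange than the blue points in both genotypes for 8 of the 12 higher and 9 of the 12 lower genes.

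Several genes of the extracellular matrix were higher in off than in cycled liver and than in the continuous livers of the same slide. Of 23 measured genes of stellate cells, fibroblasts and matrix, 7 were called higher and 1 lower, against 1.59% and 3.68% of all genes. Their median difference was 0.74 (0.58 in Fah, 0.95 in FCR) against 0.03 over all genes. The counts ran from 4 to 8 higher and 0 to 1 lower under the other scalings, filters and probe rules. Pdgfrb, the PDGF receptor of stellate cells, was at 3.44 and 2.73 on the Fah and FCR off arrays, 1.28 and -0.29 in cycled and 0.67 and 0.74 on continuous NTBC, a difference of 2.59 ± 0.52 (limma, adjusted p = 8.22e-05). Both off livers lay above all 4 other arrays. Col1a1, a chain of type I collagen, was at 4.65 and 2.79 in off, 2.80 and 0.08 in cycled and -0.25 and -0.31 on continuous NTBC. It rose by 2.29 ± 0.53 (limma, adjusted p = 0.00103), and within each genotype off lay above cycled and cycled above continuous. The mean differences of its 3 probes ranged from -1.54 to 2.29, and the call was lost with their mean.

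Lum, the collagen-binding proteoglycan lumican, was at 4.29 and 3.89 in off, 3.41 and 1.33 in cycled and 0.28 and 0.56 on continuous NTBC, and rose by 1.72 ± 0.54 (limma, adjusted p = 0.0309). Mmp12 and Mmp13, matrix proteases, rose by 2.34 ± 0.56 and 1.75 ± 0.54, mostly in FCR, with responses of 0.26 and 0.51 in Fah and 4.42 and 3.00 in FCR. Lrat, the retinol esterifying enzyme of stellate cells, rose by 1.66 ± 0.52 (limma, adjusted p = 0.0312), although its second probe went the other way by -0.68. Thbs1, thrombospondin 1, rose by 2.36 ± 0.57 with its brightest probe (limma, adjusted p = 0.00217) and differed by -0.34 as the mean of its 3 probes. Acta2, smooth muscle actin, was the member called lower, by 1.93 on the log2 scale (-1.93 ± 0.53; limma, adjusted p = 0.00928). Its other probes had the opposite sign, up to 0.89. All 4 called members with several probes thus had probes that disagreed.

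Further genes of matrix assembly and mechanical response, chosen after their values were seen, were also higher in off, and the 3 of these 5 with several measured probes had those probes higher in both genotypes. Serpinh1, the collagen chaperone HSP47, was at 4.14 and 3.62 in off, 1.86 and 0.41 in cycled and 1.69 and 1.68 on continuous NTBC (2.74 ± 0.53; limma, adjusted p = 2.83e-05). Col2a1, a fibrillar collagen of cartilage, was at 1.92 and 0.04 in off, -0.39 and -2.71 in cycled and -1.86 and -2.38 on continuous NTBC (2.53 ± 0.52). Runx2, a factor of bone and activated stroma, differed by 2.26 ± 0.59, and lost its call with the mean of all its probes (1.35; limma, adjusted p = 0.195). Ankrd1, a target of YAP, differed by 2.34 ± 0.53 and Fbln1, a basement membrane fibulin, by 1.92 ± 0.53. In the fit over all 6 arrays Serpinh1 (limma, adjusted p = 0.0255) and Pdgfrb (0.0397) still passed, and the other called genes of these groups did not, with adjusted p up to 0.262.

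Some hepatocyte enzymes lay lower in off than in cycled and continuous liver. Arg1, the arginase of the urea cycle, was at 4.46 and 3.82 in off, 5.94 and 6.05 in cycled and 5.94 and 5.58 on continuous NTBC, a difference of -1.86 ± 0.57 (limma, adjusted p = 0.0271). Ppara, the fatty acid receptor of hepatocytes, was at 0.38 and 0.79 in off, 2.21 and 2.93 in cycled and 2.17 and 3.35 on continuous NTBC (-1.98 ± 0.52; limma, adjusted p = 0.00577). Dhtkd1, a mitochondrial enzyme of lysine breakdown, was at -2.70 and -2.67 in off, 0.44 and 0.49 in cycled and -0.30 and -0.16 on continuous NTBC (-3.15 ± 0.53). Gamt, which makes creatine, fell by 1.82 on the log2 scale, Gstt1, a glutathione transferase, by 1.67, and Cideb, a lipid droplet protein, by 2.21. In the fit over all 6 arrays Ppara and Dhtkd1 still passed, and Arg1, Gamt, Gstt1 and Cideb did not. Under median scaling Arg1, Gamt and Gstt1 lost their calls. All of the enzymes and factors named above were chosen after their values were seen. They came from the 36 called genes at least 1 lower in off than in both cycled and continuous liver in both genotypes. Their order is thus fixed by that choice. A further 49 lay at least 1 higher, among them Slc7a8, an amino acid transporter (2.98 ± 0.52), Slc7a5, another (2.34 ± 0.53), and Hk2, hexokinase 2 (2.14 ± 0.52).

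Most genes of the hepatocyte lists did not pass. None of 14 hepatocyte secreted proteins passed in limma (median -0.08, or 0.30 under median scaling), and of 11 urea cycle and periportal genes 1 passed, Arg1. The 8 genes of tyrosine breakdown, the pathway that NTBC blocks, had a median of -0.81 (-0.25 in Fah, or 0.11 under median scaling, and -0.95 in FCR), and none passed. Of 16 growth hormone dependent and male-biased genes 2 were called higher and 1 lower. Mup6 and Mup1, urinary proteins, were higher, at 1.81 ± 0.52 and 1.85 ± 0.61 (limma, adjusted p = 0.0157 and 0.0473). Igfals, a carrier of IGF, was lower (-1.89 ± 0.52; limma, adjusted p = 0.0105), with responses of 0.02 in Fah and -3.80 in FCR. Mup6 was at 0.35 and 5.50 in off, -1.89 and 4.12 in cycled and 7.55 and 7.63 on continuous NTBC, so both regimens lay below continuous NTBC. Mup genes are near-identical, and their probes may not tell them apart.

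**Figure D3:**
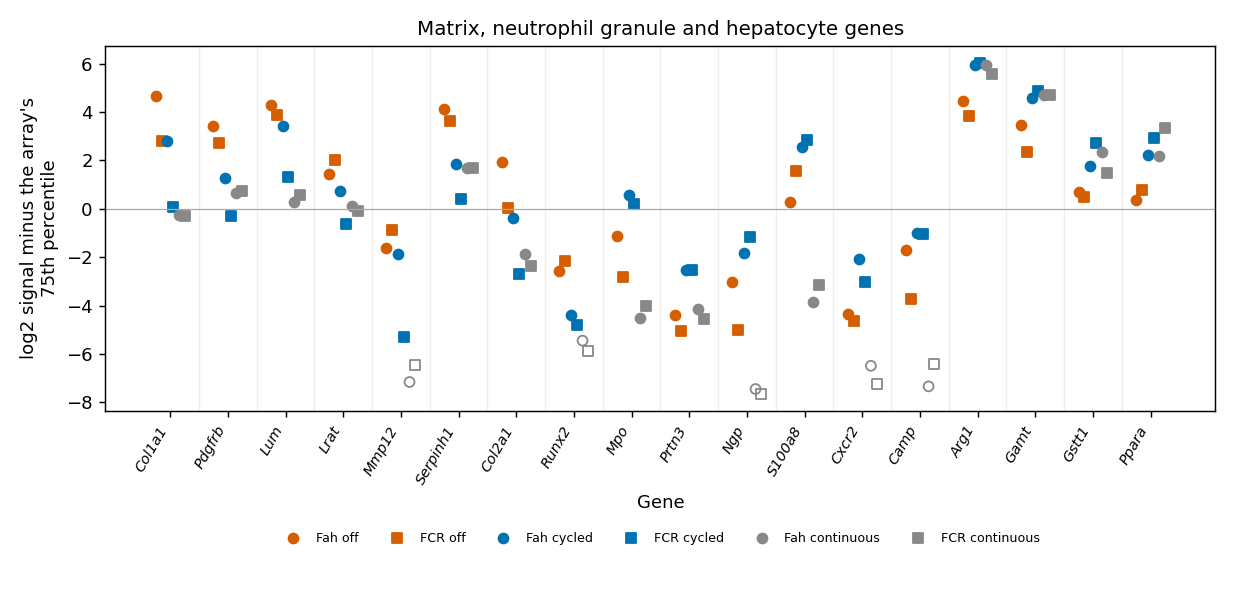
Log2 level on each of the 6 arrays (orange off, blue cycled, grey continuous; circles Fah, squares FCR) for matrix genes (left), neutrophil granule genes (middle) and hepatocyte enzymes (right); open symbols were not well above background. Serpinh1 and Pdgfrb in off lie above every cycled and continuous array, and Arg1 and Ppara in off lie below them.

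Several neutrophil granule genes were lower in off than in cycled liver. Of 14 measured neutrophil genes 6 were called lower and 1 higher, against 3.68% and 1.59% of all genes. Their median was -1.27 (-1.06 in Fah, -1.10 in FCR) against 0.03 over all genes. Between 2 and 7 were called lower under the other processing settings with the same fit, and the FCR median was -0.33 with normexp. The median level of 6 neutrophil markers was -2.37 in off and -1.41 in cycled in Fah, and -0.06 and -0.17 in FCR. Mpo, myeloperoxidase, was at -1.12 and -2.83 in off, 0.59 and 0.20 in cycled and -4.52 and -4.00 on continuous NTBC, and fell by 2.38 on the log2 scale (SE 0.53; limma, adjusted p = 0.000561). S100a8, a subunit of calprotectin, was at 0.28 and 1.56 in off, 2.56 and 2.85 in cycled and -3.84 and -3.15 on continuous NTBC (-1.78 ± 0.52; limma, adjusted p = 0.0178). Ngp, a granule protein, was at -3.01 and -5.02 in off, -1.84 and -1.16 in cycled and not well above background on continuous NTBC (-2.52 ± 0.57; limma, adjusted p = 0.000659). Both cycled livers held the highest levels of these genes, and off lay between cycled and continuous.

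Prtn3, proteinase 3, fell by 2.19, Cxcr2, a chemokine receptor, by 1.94 and Camp, cathelicidin, by 1.71, all called. With normexp Prtn3 (-0.71), Cxcr2 (-0.75), Camp (-0.97) and Ngp (-1.34) lost their calls (limma, adjusted p = 0.652, 0.604, 0.238 and 0.0652). The same genes lost them in the authors' values, while Mpo and S100a8 kept theirs in both. S100a9, the partner of S100a8, differed by -0.96 ± 0.55 and did not pass (limma, adjusted p = 0.381). Csf3r, the receptor of G-CSF, went the other way: it was at -0.57 and -0.59 in off, -1.91 and -2.95 in cycled and 1.43 and -0.23 on continuous NTBC (1.85 ± 0.54; limma, adjusted p = 0.0173). For all 7 called genes of this list the continuous level was nearer the off level, and none passed in the fit over all 6 arrays (limma, adjusted p 0.0787 to 0.259). Lyz2, lysozyme of neutrophils and macrophages, fell by 2.03 (limma, adjusted p = 0.0045).

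Acute phase genes were lower in off mainly in FCR, on 1 pair of arrays. In Fah 10 of the 24 measured genes were higher in off. Of 24 measured genes 5 were called lower, against 3.68% of all genes, and none higher. The median was -0.23 in Fah (0.13 under median scaling) and -1.46 in FCR. Between 1 and 6 were called under the other processing settings with the same fit. None of the 5 passed in the fit over all 6 arrays (limma, adjusted p 0.102 to 0.344). Saa3, serum amyloid A3, was at 1.64 and 2.98 in off, 2.50 and 5.86 in cycled and 0.99 and 3.96 on continuous NTBC (-1.87 ± 0.54; limma, adjusted p = 0.0145). Apcs, serum amyloid P, was at 1.11 and 1.20 in off, 2.28 and 3.95 in cycled and 0.67 and 3.02 on continuous NTBC (-1.96 ± 0.52; limma, adjusted p = 0.00716). Orm1 and Orm3, orosomucoids, fell by 1.71 and 1.85. The FCR cycled array was the highest of the 6 for each of these 4 genes. Itih4, a plasma protease inhibitor, was called lower (-1.85 ± 0.53) from FCR alone: its responses were 0.53 in Fah and -4.24 in FCR. The 5 hepatocyte markers had their lowest median on the FCR off array, and the 14 hepatocyte secreted proteins on the Fah off array. The part of hepatocyte content in this result was not tested.

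Most cell cycle genes lay lower in off than in cycled liver. Of 29 measured genes 3 were called lower, against 3.68% of all genes tested, and none higher. In Fah 25 and in FCR 21 of the 29 were lower. The median was -0.52 (-0.38 in Fah, -0.62 in FCR, or -0.01 and -0.22 under median scaling). No member was called with quantile normalization, with median scaling or in the authors' values. Top2a, topoisomerase II alpha, was at 0.06 and -4.44 in off, 0.63 and -1.13 in cycled and -4.68 and -5.31 on continuous NTBC (-1.95 ± 0.53; limma, adjusted p = 0.0097). Kif11, a spindle motor, and Cdkn3, a cell cycle phosphatase, fell by 1.96 and 1.66. Of the oncofetal and tumour genes, Dlk1, a fetal liver protein, fell by 1.90 (-0.83 in Fah, -2.98 in FCR) and the imprinted factor Peg3 by 2.43 (limma, adjusted p = 0.0106 and 0.000466). Spp1, osteopontin, and Epcam, an epithelial adhesion protein, were alike higher at 1.74 ± 0.58 and 1.55 ± 0.53 and did not pass (limma, adjusted p = 0.0529 and 0.0579). Afp was at 7.85 and 9.24 in off, 8.37 and 8.22 in cycled and 1.81 and 2.46 on continuous NTBC, a difference within its error (0.25 ± 0.68; limma, adjusted p = 0.911).

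Macrophage genes went in opposite directions in the genotypes. In Fah liver 18 of 21 measured macrophage genes were lower in off, with a median of -0.65, and in FCR liver 18 of 21 were higher in off, with a median of 1.98. In each genotype alone the share of all tested genes that moved by at least 1 was 12.7% lower in Fah and 19.9% higher in FCR; of the macrophage genes 6 and 14 did so. The difference between genotypes rests on 1 array each and was not tested. Marco, a scavenger receptor, was at 3.90 and 7.62 on the Fah and FCR off arrays, 5.30 and 3.37 in cycled and -0.55 and 3.23 on continuous NTBC, giving responses of -1.40 and 4.24. Cd163, the haemoglobin scavenger receptor, was at -0.62 and 2.51 in off, 0.49 and -1.92 in cycled and 0.69 and 0.41 on continuous NTBC, giving -1.11 and 4.42. FCR off was the highest of the 6 arrays for both genes, and the Fah median of the list stayed between -0.65 and -0.28 under the other settings.

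Clec4f, a lectin of Kupffer cells, was at 3.54 and 3.34 in off and 4.68 and 1.36 in cycled. Gpnmb, a glycoprotein of lipid-laden macrophages, was at 1.55 and 1.07 in off, 2.86 and -0.89 in cycled and not well above background on continuous NTBC. Lgals3, galectin 3, had responses of -1.04 and 1.26. For Clec4f and Gpnmb the FCR off level was close to the Fah off level, and the FCR cycled array was the lowest of the 4. Timd4, a phosphatidylserine receptor of resident Kupffer cells, was at -0.61 and -1.11 in off, 0.12 and -5.89 in cycled and -0.82 and -1.52 on continuous NTBC. It was well above background on every array except FCR cycled, where it was at least 23.4-fold lower than in FCR off. Timd4 was called higher by 2.03 ± 0.55 (limma, adjusted p = 0.00758), while its Fah response was -0.72. Trem2, a lipid receptor of injury-associated macrophages, was at 2.41 and 3.42 in off, 2.28 and -0.11 in cycled and -3.76 and -2.17 on continuous NTBC (1.82 ± 0.52; limma, adjusted p = 0.0146). Of the list, Trem2, Timd4 and Cd163 were called higher, and Lyz2 and the fractalkine receptor Cx3cr1 lower. None of these 5 passed in the fit over all 6 arrays (limma, adjusted p 0.138 to 0.44). No member was called higher with quantile normalization or in the authors' values. With normexp Timd4 (0.94; limma, adjusted p = 0.252) and Cx3cr1 (-0.33; adjusted p = 0.909) lost their calls.

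Cholesterol synthesis was also split by genotype. Of 20 measured genes 17 were higher in off in Fah and 19 were lower in off in FCR, with medians of 0.82 and -1.29. Opposite signs in this direction were seen for 16, while 61.6% of all tested genes had the same sign in both genotypes. In Fah 8 were at least 1 higher, against 5.94% of all genes, and in FCR 12 at least 1 lower, against 16.6%. The medians stayed between 0.66 and 1.18 in Fah and between -1.92 and -0.89 in FCR under all other settings. Fdps, farnesyl diphosphate synthase, was at 4.24 and 1.98 in off, 3.09 and 4.99 in cycled and 5.19 and 4.83 on continuous NTBC, giving responses of 1.14 in Fah and -3.02 in FCR. Fah cycled and FCR off held the lower levels. Cyp51, lanosterol demethylase, was at 1.91 and 0.43 in off, -0.21 and 1.72 in cycled and 2.66 and 2.42 on continuous NTBC, and all 3 of its probes were higher in Fah off and lower in FCR off.

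Mvk, mevalonate kinase, had responses of 1.64 and -1.96, and Sqle, squalene epoxidase, of 1.24 and -1.04. Lss, lanosterol synthase, moved in FCR alone, from 2.50 in cycled to -1.64 in off, and was called lower (-1.94 ± 0.52; limma, adjusted p = 0.00708). Hmgcs1, HMG-CoA synthase, had responses of 0.87 and -0.98.

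Promoters of 3 sterol genes with opposite signs in the genotypes are shown, to set these genes beside the letters their promoters hold. RefSeq starts on GRCm38.p6 gave the 250 bases before the start farthest upstream for 12 of the 20 genes. Each was searched on both strands for CCAAT, the NF-Y box, and for TCACNCCAC, a sterol regulatory element. CCAAT was in 11 of the 12, against 34.5% of 27025 promoters of the same length, and TCACNCCAC in 1 of the 12 (Hmgcs1), against 1.03%. Capitals mark the matches, read as ATTGG where the match is on the other strand. Such a match describes letters and not a bound site. The promoters lie at chr13:119690101-119690350 (plus strand), chr5:114444019-114444268 (plus strand) and chr5:4104698-4104947 (minus strand), in the order printed, all 5′ to 3′ on the strand of the gene.
Hmgcs1: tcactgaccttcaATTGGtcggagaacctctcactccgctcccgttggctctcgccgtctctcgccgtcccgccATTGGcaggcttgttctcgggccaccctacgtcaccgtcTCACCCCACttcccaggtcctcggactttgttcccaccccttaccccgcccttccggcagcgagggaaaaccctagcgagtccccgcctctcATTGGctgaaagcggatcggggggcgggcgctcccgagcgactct
Mvk: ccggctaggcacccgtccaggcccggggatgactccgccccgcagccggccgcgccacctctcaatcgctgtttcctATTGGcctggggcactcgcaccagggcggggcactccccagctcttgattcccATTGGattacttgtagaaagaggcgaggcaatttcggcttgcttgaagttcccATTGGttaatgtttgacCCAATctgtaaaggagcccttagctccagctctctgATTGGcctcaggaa
Cyp51: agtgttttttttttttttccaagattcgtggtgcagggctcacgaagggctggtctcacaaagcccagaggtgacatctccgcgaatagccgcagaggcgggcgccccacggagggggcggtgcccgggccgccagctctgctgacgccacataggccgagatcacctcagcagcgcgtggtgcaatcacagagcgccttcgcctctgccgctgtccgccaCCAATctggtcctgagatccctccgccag

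Lipogenic genes had the same signs as the sterol genes. Of 17 measured genes 13 were higher in off in Fah and 14 lower in off in FCR, with medians of 0.31 and -1.10. In Fah 3 were at least 1 higher, against 5.94% of all genes, and in FCR 10 at least 1 lower, against 16.6%. Scd1, stearoyl-CoA desaturase, was at 4.58 and 1.31 in off, 3.25 and 5.89 in cycled and 7.26 and 6.05 on continuous NTBC, giving responses of 1.33 and -4.58. Thrsp, a thyroid hormone responsive lipogenic protein, was at 1.16 and -0.62 in off, -0.01 and 4.33 in cycled and 4.62 and 5.52 on continuous NTBC, giving 1.17 and -4.95. FCR cycled was the highest of the 4 off and cycled livers for both genes and the nearest to its continuous level. Acss2, acetyl-CoA synthetase, had responses of 1.16 and -1.04. Fasn, fatty acid synthase, had responses of 0.14 in Fah and -2.96 in FCR. Acaca, acetyl-CoA carboxylase, had 0.09 and -2.84 with its brightest probe, while its other 3 probes were lower in off in both genotypes, with Fah responses from -2.13 to -1.48. Thrsp and the pyruvate kinase Pklr were called lower (limma, adjusted p = 0.00968 and 0.0375). All FCR values of these groups rest on the FCR off array, which also had the lowest median of the 5 hepatocyte markers. The 14 hepatocyte secreted proteins were instead lowest on the Fah off array (median 7.27, against 7.68 on the FCR off array). The part of the FCR off array in the opposite direction was not tested. Without that array only the Fah responses remain.

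**Figure D4:**
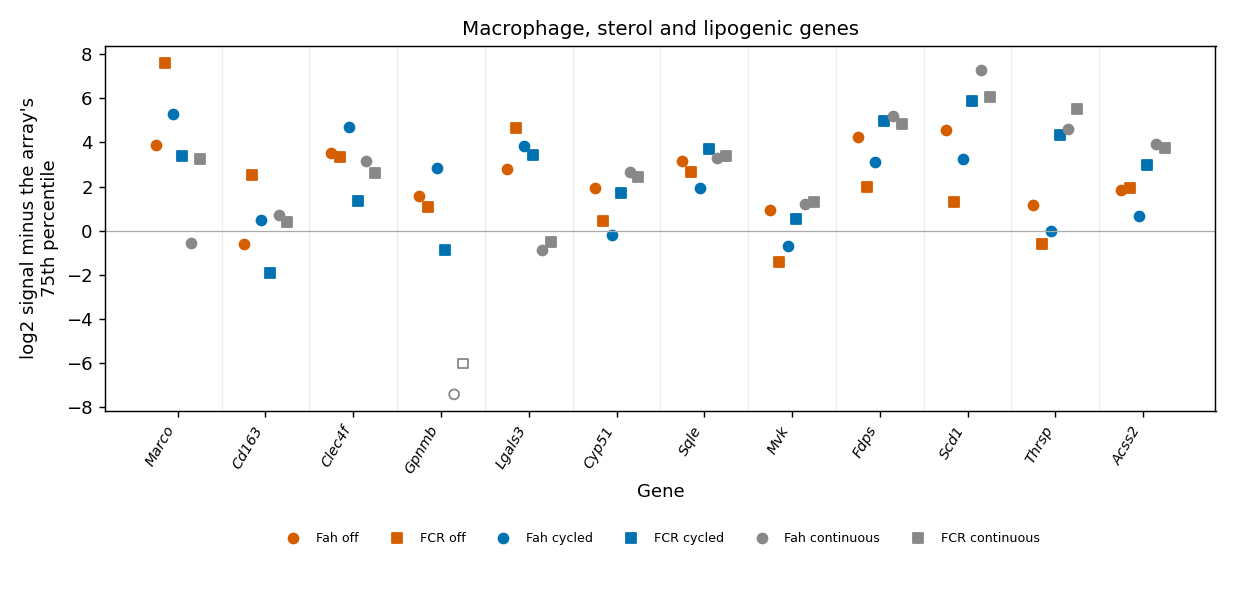
Log2 level on each of the 6 arrays (orange off, blue cycled, grey continuous; circles Fah, squares FCR) for macrophage (left), sterol (middle) and lipogenic genes (right); open symbols were not well above background. For Marco and Cd163 the orange square lies above and the blue square below the orange and blue circles, and for Fdps, Scd1 and Thrsp the order of the squares is reversed.

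The largest opposite responses of single genes lay partly near background. Among those higher in Fah off and lower in FCR off, Cyp1a2, a pericentral cytochrome, was at 3.22 and 0.69 in off, 1.44 and 2.49 in cycled and 5.48 and 5.0 on continuous NTBC, giving responses of 1.79 and -1.80. Cfd, the complement factor adipsin, was at least 3.57-fold higher in Fah off than in Fah cycled and had an FCR response of -3.04. Cyp2a22 had responses of 1.70 and -1.98. In the other direction Ccl24, an eosinophil chemokine, was at -1.16 and 1.39 in off, 1.66 and -2.35 in cycled and -0.96 and -1.15 on continuous NTBC, giving -2.82 and 3.74. Cd109, a GPI-anchored protein, had a Fah response of -2.09 and was at least 9.92-fold higher in FCR off than in FCR cycled. Ms4a8a, a membrane protein of macrophages, had responses of -2.26 and 2.79. Ccl1, Rpl39l and Klk1b11 were well above background only on the Fah cycled and FCR off arrays, so their sizes are not measured.

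Some genes responded in FCR with little response in Fah. Chil4, a chitinase-like protein of such macrophages, was at -2.22 and 2.82 in off, -1.93 and -2.54 in cycled and -6.92 and -4.92 on continuous NTBC (2.54 ± 0.53; limma, adjusted p = 0.000185). Ear6, an eosinophil ribonuclease, was at least 21.2-fold higher in FCR off than in FCR cycled and had a Fah response of -0.29. FCR off held the highest level of both genes. Car3, carbonic anhydrase of hepatocytes, fell in FCR from 6.20 in cycled to 1.70 in off and had a Fah response of -0.19 (-2.34 ± 0.55; limma, adjusted p = 0.00155). Hamp2, a hepcidin, fell there from 3.79 to -0.11, and A1bg, a plasma protein with female-biased expression, was at least 31.8-fold lower. Of the p53 targets Plk2, a kinase, and Pmaip1, the death factor NOXA, were called higher at 2.15 ± 0.52 and 1.62 ± 0.52, with Fah responses of 0.98 and 0.04. Cdkn1a, the cell cycle inhibitor p21, was alike lower, at 1.19 and 2.57 in off against 2.85 and 3.89 in cycled, and did not pass (limma, adjusted p = 0.0734).

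Mast cell genes had lower levels in Fah off than in Fah cycled liver. All 8 measured mast cell genes were lower in Fah off, with a median of -2.07, against -0.16 in FCR, where 4 were lower. In Fah 5 of the 8 were at least 1 lower, against 12.7% of all genes. Mcpt4, a mast cell chymase, was at 0.92 and -3.94 in off, 3.88 and -3.47 in cycled and -3.72 and -4.42 on continuous NTBC (-1.72 ± 0.53; limma, adjusted p = 0.0271). Cma1, another chymase, was at 0.83 and -3.14 in off and 3.40 and -2.64 in cycled. The tryptase Tpsb2 and the IgE receptor chain Fcer1a fell short of the threshold, with Fah responses of -2.15 and -2.05. For 3 mast cell markers the median level was 0.62 in Fah off, 2.72 in Fah cycled, and -5.81 to -3.82 in the FCR and continuous livers. The FCR median turned positive under median scaling (0.24), quantile normalization (0.25), normexp (0.50) and in the authors' values (0.11), while the Fah median stayed between -2.12 and -1.71.

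Other lists are given in less detail. Ciart, a clock repressor, was at -1.24 and -0.34 in off, -3.62 and -2.34 in cycled and -3.32 and 0.55 on continuous NTBC (2.19 ± 0.55; limma, adjusted p = 0.00325). Per1 and Nr1d2, of the same clock, were alike higher at 1.51 ± 0.52 and 1.39 ± 0.52 and did not pass, and Dbp, their output factor, was opposite (1.19 and -1.42). Times of day at collection are not given. Of 28 NRF2 targets, genes of the antioxidant response, 1 passed: Slc7a11, a cystine transporter, at 0.92 and 4.34 in off, -0.95 and 2.50 in cycled and not well above background on continuous NTBC (1.85 ± 0.52; limma, adjusted p = 0.0122). As the mean of its 3 probes it differed by -0.43. Car9, a hypoxia-induced carbonic anhydrase, and Eno1, enolase, were called in opposite directions, at 2.99 ± 0.53 and -2.90 ± 0.52. Car9 was at 0.10 and 0.53 in off and -2.92 and -2.43 in cycled, both below continuous NTBC (2.40 and 2.53). Eno1 was at 0.99 and -1.33 in off, 2.46 and 3.00 in cycled and 1.88 and 1.06 on continuous NTBC. Of 26 cytokine and chemokine genes Ccl19, a T cell zone chemokine, passed (1.63 ± 0.52; limma, adjusted p = 0.037). The median was -0.21 in Fah (0.16 under median scaling) and 1.09 in FCR, where 15 were at least 1 higher, against 19.9% of all genes. No T cell or NK cell gene passed, of 13 and 12 measured. The NK list had medians of -1.06 in Fah and -0.23 in FCR. These were -0.45 and 0.65 for its 6 genes well above background on all 4 arrays. None of 19 type I interferon genes passed, and their median was 0.60 in Fah and 0.32 in FCR (-0.23 with the mean of probes). Respiratory chain genes had medians of -0.60 in Fah, where 19 of 20 were lower, and 0.30 in FCR (-0.12 in the authors' values), and none passed. In Fah 4 of the 20 were at least 1 lower, against 12.7% of all genes.

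**Figure D5:**
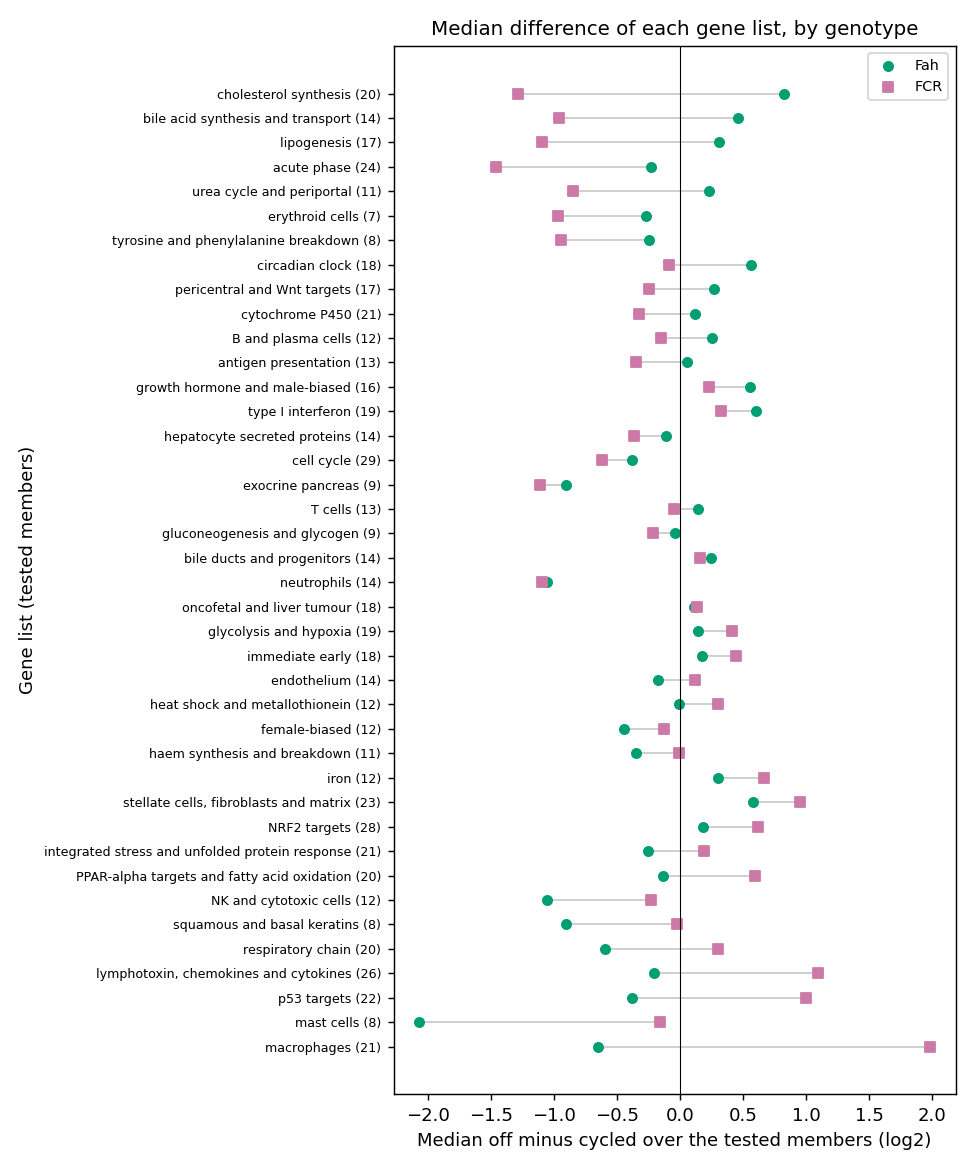
Median off minus cycled (log2) of each gene list in Fah (circles) and FCR (squares), ordered by the difference between genotypes, with the number of tested members in parentheses. Cholesterol synthesis (0.82 and -1.29) and macrophages (-0.65 and 1.98) lie at opposite ends, and the neutrophil and matrix lists have the same sign in both.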

How the data were processed

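RNA of 6 mouse livers was hybridised to Agilent single-colour arrays, per the labels. The deposited scanner files hold the processed intensity of each spot, made by Feature Extraction 10.7.3.1 per the file headers (10.5 per the submitters' processing notes). A further table of the authors' deposited values is on the log2 scale, with array medians of 6.45 to 6.48, with no normalization stated in the labels or headers.

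Control and outlier spots were left out, and spots of a probe were averaged. Accessions of 26933 of 41174 probes were matched to RefSeq gene names of GRCm38.p6, giving 18346 genes, each read from its brightest probe. Genes well above background on at least 2 of the 4 arrays entered a two-sided fit with genotype as a block (R 4.3.3, limma 3.58.1; lmFit, eBayes with an intensity trend, Benjamini-Hochberg at 0.05). P-values rest on the differences between Fah and FCR responses, pooled over all genes, and not on replicates of a genotype. Part of this spread may be technical, and the number of arrays limits the precision. The members and the 40 gene lists were chosen with earlier results of these data known. Named genes are the 12 largest called alike each way, 8 opposite each way, 4 moving in 1 genotype each way, and up to 4 a list, together with genes said to be chosen after seeing values. On simulated data with 200 changed genes among 15294, changes of 4, 2 and 1 were recovered at 100%, 46.2% and 4.97% for this comparison. Alternatives were other background corrections, scalings, filters, probe rules and models, the authors' values, and leaving out arrays. Normexp used an offset of 50 on the median spot signal. Added after seeing the data were values floored at a common level, the Fah arrays alone for list medians, and the placing of genes beyond the continuous arrays. Some members of the cholesterol synthesis list are counted in it but not reported here by name.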

Additional observations from a re-analysis of the deposited data

Results flagged for a closer look

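The following genes differed by at least 1 (log2) one way in Fah and the other way in FCR in the measured values, some of which lay below background. Each genotype has 1 off and 1 cycled array, and the difference was not tested for any of them. Values are the Fah response minus the FCR response.

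Among sterol and lipogenic genes the difference was 4.16 for Fdps, 3.41 for Cyp51, 3.6 for Mvk, 2.28 for Sqle, 5.91 for Scd1, 6.12 for Thrsp and 2.21 for Acss2. The median of the cholesterol synthesis list differed by 2.11. Among macrophage genes it was -5.64 for Marco, -5.54 for Cd163, -3.11 for Clec4f, -3.26 for Gpnmb and -2.29 for Lgals3, and the list median differed by -2.63.

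Of the other genes, those higher in Fah off were Cfd (5), Vash2 (5.87), Nrep (4.85), Gpr39 (4.24), Ntn1 (3.92), Dkk2 (3.8), Cyp2a22 (3.68), Cyp1a2 (3.58), the clock factor Dbp (2.61) and the acute phase protein Crp (2.55). Those higher in FCR off were Cd109 (-7.69), Ccl24 (-6.57), Rpl39l (-6.57), Crct1 (-6.39), Ccl1 (-6.37), Ms4a8a (-5.05), Hhip (-4.65) and Klk1b11 (-4.46).

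Some of these values rest on levels not well above background. With values raised to a common floor the difference was -1.82 for Ccl1, -1.26 for Rpl39l, -1.29 for Klk1b11 and 1.52 for Dkk2, too small for a response of 1 each way. For Cd109 it was then -5.4, for Crct1 -4.84, for Cfd 4.34, for Nrep 3.2 and for Vash2 2.22. With normexp it was 0.04 for Dkk2, 0.28 for Vash2, 0.74 for Nrep, 1.58 for Gpr39 and 1.89 for Ntn1.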

How the results depend on the processing

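The number of arrays and the shared slide limit every call. Without the genotype as a replicate block 1 gene was called higher and 3 lower. With all 6 arrays 17 and 137 were called. Leaving 1 off or cycled array out of that 6-array fit gave 0 to 269 higher and 0 to 352 lower. Without the FCR cycled array it gave 28 higher and 126 lower. These fits kept both continuous arrays and left 1 array in 1 of the regimens compared. Without the Fah off or the FCR off array limma called 0 genes, with 4312 and 1896 at an unadjusted p under 0.05. Median scaling called 759 higher and 329 lower, the authors' values 158 and 262. Normexp called 306 lower and quantile normalization 291.

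Genes alike higher numbered 1203 with median scaling, 224 with normexp and 766 with quantile normalization, and 1675 and 40 at response sizes of 0.5 and 2. Genes alike lower numbered 509 with median scaling, 470 in the authors' values, 352 with normexp, and 2034 and 200 at those sizes. Opposite genes higher in FCR off numbered 27 in the authors' values, 236 without a filter, 33 with normexp, 69 with quantile normalization, 67 when well above background on all 4 arrays, 68 with floored values, and 671 and 7 at those sizes. Opposite genes higher in Fah off numbered 146 with median scaling, 62 in the authors' values, 37 with normexp, and 568 and 0 at those sizes.

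Directions turned for Hmgcs1 (0.33 with median scaling, 0.02 in the authors' values, 0.01 with quantile normalization), Slc7a11 (-0.43) and Thbs1 (-0.34) with the mean of probes. With 1 genotype left, Itih4 ranged from -4.24 (FCR) to 0.53 (Fah) and Timd4 from -0.72 (Fah) to 4.78 (FCR). The Fah minus FCR response was -0.04 for Olfr339 and -0.01 for Reg3g with normexp. The cause was not tested for these changes. Some of the 99 named genes were not called in the main fit and had no call to lose. Calls were lost by 77 without the block, where 4 of all tested genes were called, and by 53 with all 6 arrays. They were lost by 20 in the authors' values, 17 with normexp, 16 with median scaling, 15 with quantile normalization and 10 with the mean of probes.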
